A study of Mus musculus with 7 samples.

Results

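The glycolysis and lactate genes described here are 10 genes chosen by name among the gene probes of a whole mouse genome array. They are Slc2a1, the hexokinases Hk1 and Hk2, the phosphofructokinases Pfkl and Pfkp, Aldoa, Pgk1, Pgam1 and the lactate dehydrogenases Ldha and Ldhb. All 10 passed the filter on dim probes, among 17537 genes tested, and they were measured by 20 of the array's 41174 gene probes. The samples were epithelial cells sorted from mouse intestine and measured on 7 dual-colour arrays. Of these, 6 held GFP-high cells of Dll1-EGFP-ires-CreERT2 mice, 2 replicates each of CD24 high, of CD24 medium and of CD24 low, and 1 held GFP-high cells of Lgr5-EGFP-ires-CreERT2 mice. In each mouse line GFP is driven by the promoter in its name, so a sort collects cells by promoter activity and, in the Dll1 line, by the surface protein CD24. Strain, age and the number of animals behind a sample are not given in the sources used here. Nothing ties the replicates, which the series names biological, to single animals, and p-values measure only the spread between these samples. RNA of whole small intestine in Cy5 was the common partner of every Cy3 sample. A level is therefore log2 of sample over whole small intestine, after loess normalisation within each array. A level of 0 is the ratio typical of that array at the gene's intensity, not equal raw signal. On high replicate 1, Pfkl had mean signals of 403.2 in the sample and 4304 in the reference, at a level of 0.59. Levels of different genes cannot be compared.

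Glycolysis splits glucose into pyruvate in the cytosol. Glucose enters through carriers such as GLUT1, hexokinases trap it as glucose 6-phosphate, phosphofructokinase commits it to the pathway, and aldolase, phosphoglycerate kinase and phosphoglycerate mutase carry the sugar towards pyruvate. Lactate dehydrogenase then turns pyruvate into lactate, or lactate back into pyruvate, and in the crypt such an exchange between Paneth cells and their neighbouring stem cells has been discussed. The comparisons ask whether the Paneth-rich CD24 high cells are the more glycolytic by these transcripts, and the Lgr5 cells the less.

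The following sequences are what the array read for the members with most to tell about probes. These 4 probes read through in at least 1 frame without a stop codon, and each is given in full in lower case, with its position on mm9 and its strand as the array files state them. The probes of Pfkp and Ldha cross an intron, spanning 2155 and 930 genomic bases for their 60 nucleotides. The Pfkp probe gave its main value, and the Ldha and Hk1 probes are further ones beside the brightest probe used for the main value of each gene.
Pfkp, chr13:6581718-6583872, minus strand: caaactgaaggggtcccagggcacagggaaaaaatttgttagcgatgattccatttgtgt
Ldha, chr7:54109426-54110355, plus strand: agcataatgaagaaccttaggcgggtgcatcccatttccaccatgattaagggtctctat
Hk1, chr10:61734377-61734436, minus strand: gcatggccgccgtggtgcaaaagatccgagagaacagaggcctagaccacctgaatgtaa
Hk1, chr10:61732735-61732794, minus strand: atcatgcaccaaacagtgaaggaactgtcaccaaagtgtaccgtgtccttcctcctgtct

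Several members are textbook targets of the hypoxia-inducible factor, whose core motif is ACGTG or GCGTG on either strand. RefSeq's promoter table for GRCm38.p6 held 14 entries for the 10 members, each read over the 250 bases before the start. Every member had the motif in at least 1 entry, and 12 of the 14 entries held it, against 38.6% of all 32851 promoters in the table. That share is per entry, so it matches the count of entries and not that of members. Of the entries with the motif, 2 are overlapping ones of Aldoa that hold the same site. Member promoters held 49.6 to 69.6% G and C, against a median of 52.4% over all promoters, and motifs rich in G and C are met more often in such sequence. The match is to letters alone and says nothing of binding. The sequences, with the motif in capitals, are the promoters of Slc2a1 and Hk2, which were lower in Lgr5 cells, of Pgam1, which was higher there, and of Ldha, which passed in no comparison with its main probe. The Ldha stretch holds ACGTG at 5 places on both strands counted together, 4 of them overlapping in 2 copies of CACGTG, a palindrome met in 6.02% of all promoters.
Slc2a1, chr4:119108495-119108744, plus strand: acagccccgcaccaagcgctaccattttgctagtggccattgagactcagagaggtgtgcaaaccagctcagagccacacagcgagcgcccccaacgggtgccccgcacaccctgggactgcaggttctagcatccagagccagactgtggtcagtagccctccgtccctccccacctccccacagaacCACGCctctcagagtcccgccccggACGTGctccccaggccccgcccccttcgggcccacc
Hk2, chr6:82774455-82774704, minus strand: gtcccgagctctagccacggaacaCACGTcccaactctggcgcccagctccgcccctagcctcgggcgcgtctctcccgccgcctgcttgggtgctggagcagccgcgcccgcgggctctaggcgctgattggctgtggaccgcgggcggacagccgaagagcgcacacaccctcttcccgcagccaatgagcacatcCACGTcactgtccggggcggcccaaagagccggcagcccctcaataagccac
Pgam1, chr19:41911621-41911870, plus strand: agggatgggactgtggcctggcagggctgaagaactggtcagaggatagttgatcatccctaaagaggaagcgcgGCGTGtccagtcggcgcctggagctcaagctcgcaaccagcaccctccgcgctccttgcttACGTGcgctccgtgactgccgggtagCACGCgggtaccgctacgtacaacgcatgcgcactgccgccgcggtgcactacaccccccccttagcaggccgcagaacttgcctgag
Ldha, chr7:46845554-46845803, plus strand: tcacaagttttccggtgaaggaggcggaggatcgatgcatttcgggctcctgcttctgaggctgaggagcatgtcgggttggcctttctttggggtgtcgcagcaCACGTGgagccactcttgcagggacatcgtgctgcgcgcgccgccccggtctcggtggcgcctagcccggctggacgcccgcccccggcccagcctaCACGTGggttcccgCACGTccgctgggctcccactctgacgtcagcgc

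Paneth markers were highest in CD24 high and stem cell markers in Lgr5, and Cd24a followed the CD24 sort, but Dll1 itself was not high in CD24 high. Dll1, whose promoter drives the GFP of the sort, stood at 0.61 and −0.04 on the CD24 high arrays, 2.81 and 2.53 on CD24 medium, 2.56 and 2.52 on CD24 low and 0.88 on Lgr5. The CD24 high samples thus lay below the Lgr5 sample in the transcript that names their sort. The mean log2 ratio of 7 measured Paneth markers of 8 listed was 5.05 and 5.35 on the CD24 high arrays, −1.01 and −0.84 on CD24 medium, −3.11 and −3.00 on CD24 low and −3.73 in Lgr5. For 7 stem cell markers it was 0.54 and 0.34 in CD24 high, between −0.69 and −0.47 on the CD24 medium and CD24 low arrays, and 1.82 in Lgr5. Enteroendocrine markers averaged 2.46 and 3.78 in CD24 medium, 1.26 and 2.27 in CD24 low and −0.98 in Lgr5. Goblet markers averaged 2.71 and 2.08 in CD24 medium, 3.53 and 2.72 in CD24 low and −3.57 in Lgr5. Of the 7 markers in each of these lists, 0 passed between CD24 medium and CD24 low, where 0.114% of all genes did. Immune markers averaged 0.36 and 0.62 on the CD24 high arrays and −1.41 to −0.96 on the other arrays. Spots of the sample channel stood well above background for 42.5 to 44.4% on CD24 high and 52.8 to 60.5% on the other arrays. Across genes, which are no independent replicates, r was 0.90 to 0.94 between replicates. Precision is limited by the number of arrays, and the fit takes the spread of Lgr5, with 1 array, from the Dll1 groups. In sorted bulk samples, fewer cells of a type and less RNA per cell cannot be told apart.

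Each Dll1 group had 5 of the 10 members higher and 1 lower than Lgr5 cells. Slc2a1, Hk1, Hk2, Pfkp and Aldoa were higher in CD24 high, CD24 medium and CD24 low cells than in Lgr5 cells, and Pgam1 was lower, each by limma at an adjusted p under 0.05. Thus 6 members passed in each comparison, where 35.9% of all genes passed for CD24 high, 18.8% for CD24 medium and 21.7% for CD24 low. For CD24 medium the count fell to 2 without medium replicate 1 and to 3 without medium replicate 2, and with slide as a term it was 4 for CD24 medium and 4 for CD24 low. The median of the 10 members was 0.55, 0.45 and 0.74 in these comparisons, and that of all genes 0.10, 0.09 and 0.10. By direction, 21.2, 10.3 and 11.9% of all genes were higher in CD24 high, medium and low than in Lgr5, and 14.6, 8.53 and 9.78% were lower. The 3 comparisons share the single Lgr5 array, so a member called in all of them is not seen 3 times independently. On that array the levels of the 5 members lay below all 6 Dll1 arrays, as did 34.3% of all genes. Before normalisation, mean sample signals of Hk2, Pfkp, Aldoa and Slc2a1 were lower on both CD24 high arrays than on Lgr5. For Aldoa they were 4892 and 5816 against 12860, and for Slc2a1 628.3 and 583.3 against 803.4. Those of Hk1 were higher, at 603.8 and 617.7 against 426.4. For the other 4 members the direction in CD24 high thus appeared only after normalisation. Goblet markers moved with this contrast, with a mean log2 ratio of 0.30 to 3.53 on the Dll1 arrays and −3.57 on Lgr5, all 7 being above background on every array, and their part in these differences was not tested.

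**Figure D1:**
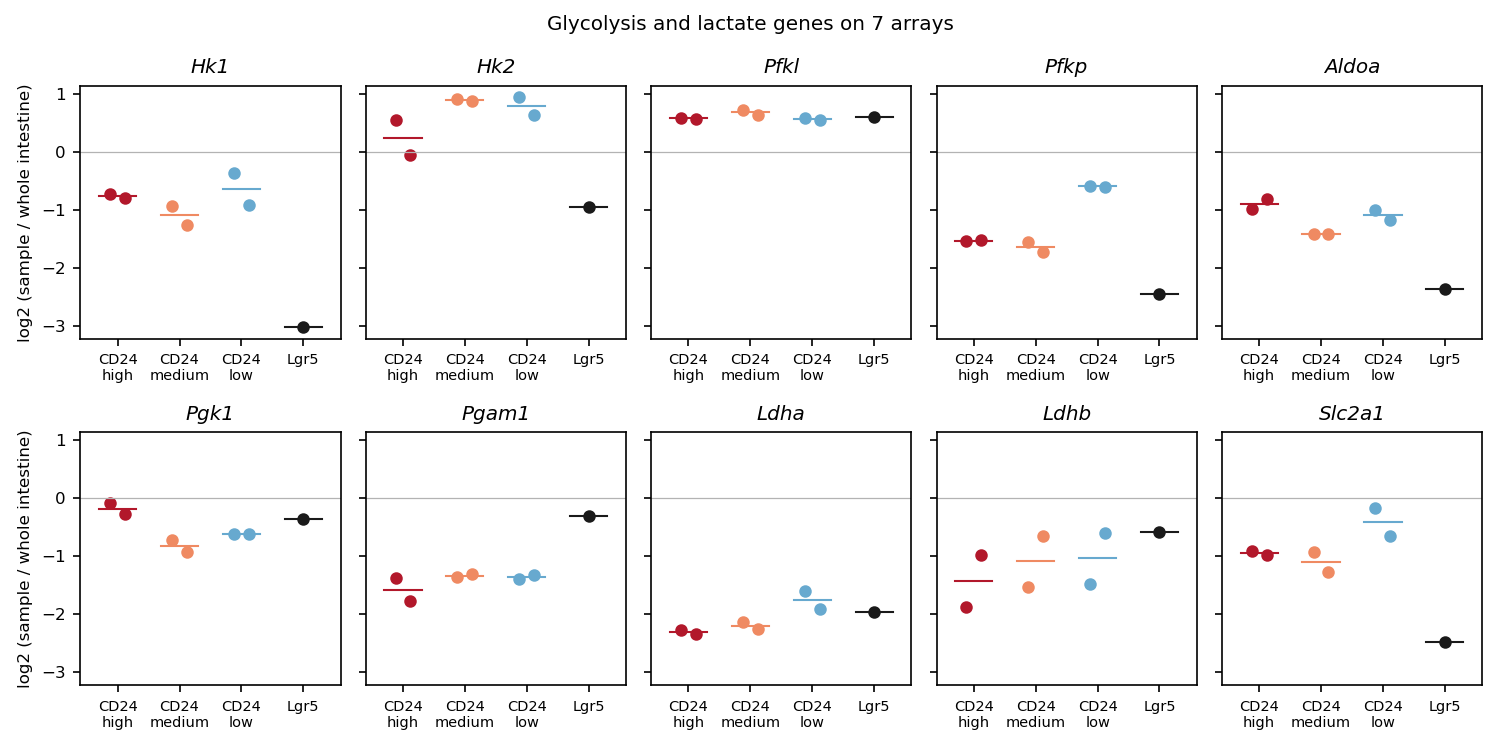
Each panel is a member, with the log2 ratio of sample to whole small intestine on the vertical axis and the 4 groups from CD24 high to Lgr5 on the horizontal axis. Points are arrays (2 per CD24 level, 1 for Lgr5) and lines are group means. Hk1, Hk2, Pfkp, Aldoa and Slc2a1 are lowest on the Lgr5 array, Pgam1 is highest there, and the Ldhb replicates lie about 0.9 apart.

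Slc2a1 encodes GLUT1, the facilitative glucose carrier (probe on chromosome 4, 118809864 to 118809923, mm9). Its level was −0.91 and −0.98 on the CD24 high arrays, −0.93 and −1.27 on CD24 medium, −0.16 and −0.65 on CD24 low and −2.47 on Lgr5. All 6 Dll1 arrays lay above Lgr5, and the CD24 low arrays lay above the other 4 Dll1 arrays. Slc2a1 was 2.88-fold higher in CD24 high than in Lgr5 (log2 difference 1.53, SE 0.27, adjusted p = 0.0063), 2.58-fold in CD24 medium (adjusted p = 0.018) and 4.18-fold in CD24 low (adjusted p = 0.0049). The call for CD24 medium ended without medium replicate 1, at an adjusted p of 0.069. The order of the group means was CD24 low, CD24 high, CD24 medium and Lgr5, and no 2 of the CD24 levels differed past the threshold.

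Hk1 and Hk2 encode the hexokinases that phosphorylate glucose. Hk1 (chromosome 10, 61731916 to 61731975) stood at −0.72 and −0.80 on the CD24 high arrays, −0.93 and −1.26 on CD24 medium, −0.37 and −0.91 on CD24 low and −3.02 on Lgr5. The Dll1 groups lay close together and far above Lgr5. Hk1 was 4.79-fold higher in CD24 high than in Lgr5 (log2 difference 2.26, SE 0.28, adjusted p = 0.0017), 3.79-fold in CD24 medium (adjusted p = 0.0069) and 5.19-fold in CD24 low (adjusted p = 0.0035). Its call against Lgr5 held under every alternative tried, although the difference moved between 0.98 and 2.36 for CD24 high. Hk2 (chromosome 6, 82675056 to 82675115) stood at 0.55 and −0.06 on the CD24 high arrays, 0.91 and 0.87 on CD24 medium, 0.94 and 0.64 on CD24 low and −0.94 on Lgr5. Here CD24 high was the lowest of the Dll1 groups, without overlap with CD24 medium or CD24 low. Hk2 was 2.28-fold higher in CD24 high than in Lgr5 (SE 0.29, adjusted p = 0.02, and 0.052 with Agilent's processed signals, its own background and dye correction), 3.56-fold in CD24 medium (adjusted p = 0.0092) and 3.32-fold in CD24 low (adjusted p = 0.01). CD24 high fell short of CD24 medium by a log2 difference of −0.64 (adjusted p = 0.1), which passed with the sample channel alone (normalised Cy3 intensity, without the whole intestine partner), at −0.98 (adjusted p = 0.012), and without high replicate 1, at −0.95 (adjusted p = 0.042).

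Phosphofructokinase is made from muscle, liver and platelet type subunits, and Pfkl and Pfkp encode the liver and platelet types. Pfkl (chromosome 10, 77450926 to 77450985) stood at 0.59 and 0.56 on the CD24 high arrays, 0.73 and 0.64 on CD24 medium, 0.58 and 0.55 on CD24 low and 0.60 on Lgr5. These 7 values span a narrow range and no comparison passed. The interval of CD24 high minus Lgr5 ran from −0.45 to 0.40, and any difference within that interval is compatible with these arrays. Pfkp was measured with the intron-crossing probe printed above. It stood at −1.54 and −1.52 on the CD24 high arrays, −1.55 and −1.72 on CD24 medium, −0.58 and −0.61 on CD24 low and −2.45 on Lgr5. CD24 low was above every other array and Lgr5 below every other. Pfkp was 1.90-fold higher in CD24 high than in Lgr5 (log2 difference 0.93, SE 0.18, adjusted p = 0.0098), 1.76-fold in CD24 medium (adjusted p = 0.027) and 3.63-fold in CD24 low (adjusted p = 0.0022). For CD24 high that call ended with processed signals (adjusted p = 0.2), with the sample channel alone (0.1) and with the mean of all probes (0.12). For CD24 medium it ended under these (0.086, 0.075 and 0.27), with slide as a term (0.05) and without either CD24 medium array (0.12 and 0.087).

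Aldoa encodes aldolase A, which cleaves fructose 1,6-bisphosphate (chromosome 7, 133938799 to 133938858). It stood at −0.98 and −0.81 on the CD24 high arrays, −1.42 and −1.41 on CD24 medium, −1.01 and −1.17 on CD24 low and −2.37 on Lgr5. The CD24 high arrays were the highest of the 7 and Lgr5 the lowest. Aldoa was 2.77-fold higher in CD24 high than in Lgr5 (log2 difference 1.47, SE 0.19, adjusted p = 0.0022), 1.94-fold in CD24 medium (adjusted p = 0.02) and 2.42-fold in CD24 low (adjusted p = 0.0077). With the sample channel alone these differences were 0.59, 0.34 and 0.76 and none passed (adjusted p = 0.12, 0.42 and 0.086). The CD24 medium call also ended without medium replicate 1 (0.078) or 2 (0.091), and the CD24 low call with slide as a term (0.053).

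Pgk1 and Pgam1 encode phosphoglycerate kinase, which makes ATP, and phosphoglycerate mutase. Pgam1 (chromosome 19, 41992898 to 41992957) went the other way from the genes above. It stood at −1.38 and −1.77 on the CD24 high arrays, −1.36 and −1.30 on CD24 medium, −1.39 and −1.33 on CD24 low and −0.31 on Lgr5. Both CD24 high arrays lay below the CD24 medium arrays, replicate 1 (−1.38) only just and replicate 2 (−1.77) further. CD24 low overlapped with each of these groups, and Lgr5 lay above all 6 arrays, as it did for 25.6% of all genes. Pgam1 was 2.40-fold lower in CD24 high than in Lgr5 (log2 difference −1.26, SE 0.22, adjusted p = 0.0063), 2.03-fold in CD24 medium (adjusted p = 0.025) and 2.07-fold in CD24 low (adjusted p = 0.021). The CD24 medium call ended with slide as a term (0.057) and without medium replicate 1 (0.093) or 2 (0.091), and the CD24 low call with slide as a term (0.12) and without low replicate 2 (0.053). Pgk1 stood at −0.08 and −0.28 on the CD24 high arrays, −0.72 and −0.92 on CD24 medium, −0.62 and −0.61 on CD24 low and −0.35 on Lgr5. CD24 high was highest and CD24 medium lowest, with Lgr5 between them, and no comparison with Lgr5 passed. The array files place both Pgk1 probes on chromosome 3, while RefSeq puts the gene on chromosome X, so its value may include a near-identical copy and is uncertain.

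Lactate dehydrogenase is a tetramer of A and B subunits, encoded by Ldha and Ldhb, and neither main value passed against Lgr5. Ldha (chromosome 7, 54110889 to 54110948) stood at −2.26 and −2.34 on the CD24 high arrays, −2.13 and −2.26 on CD24 medium, −1.59 and −1.90 on CD24 low and −1.96 on Lgr5. CD24 high held the lowest and CD24 low the highest values, with Lgr5 below both CD24 low arrays and above CD24 medium. The difference of CD24 high to Lgr5 was −0.34 (SE 0.21, adjusted p = 0.26) and passed with the sample channel alone, at −1.18 (adjusted p = 0.014). Ldhb (chromosome 6, 142438838 to 142438897) stood at −1.88 and −0.97 on the CD24 high arrays, −1.52 and −0.65 on CD24 medium, −1.47 and −0.59 on CD24 low and −0.57 on Lgr5. Replicate 1 lay below replicate 2 in all 3 levels, and on high replicate 1 the probe was not well above background. The difference of CD24 high to Lgr5 was −0.85 (SE 0.55, adjusted p = 0.28), with an interval from −2.16 to 0.46, and it passed with the sample channel alone, at −1.49 (adjusted p = 0.042).

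**Figure D2:**
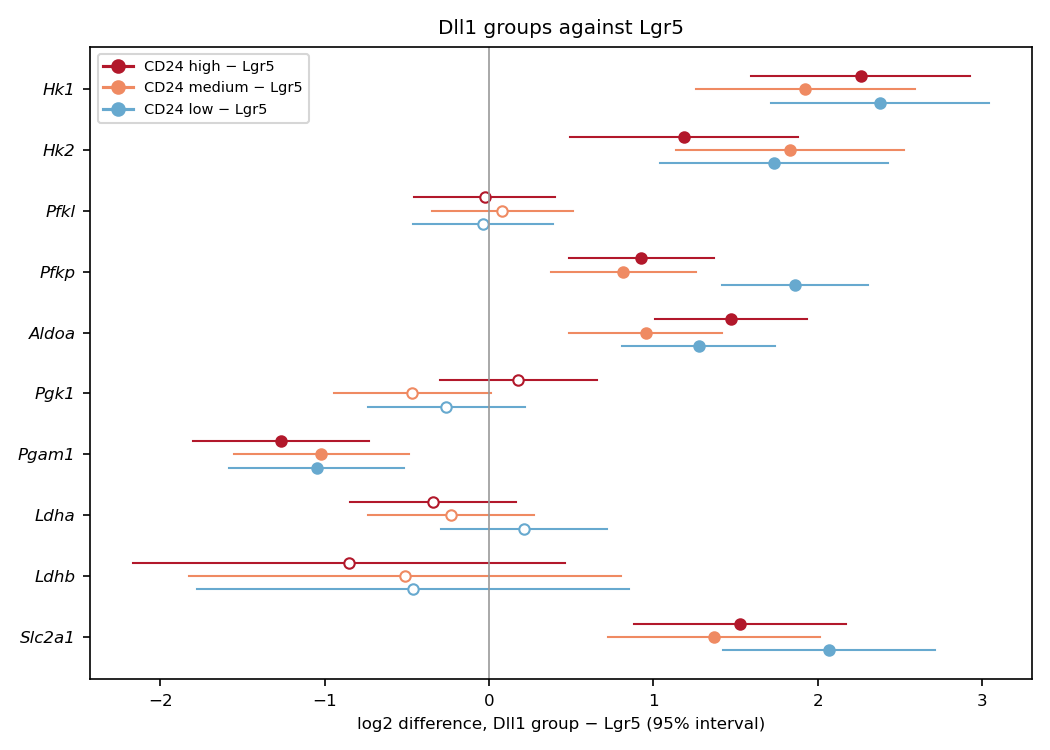
Log2 difference of each Dll1 group to Lgr5 on the horizontal axis, with 95% intervals, for the 10 members down the page. Filled points have an adjusted p under 0.05. Hk1, Hk2, Pfkp, Aldoa and Slc2a1 are filled to the right of 0 in each group and Pgam1 to the left, while Pfkl, Pgk1, Ldha and Ldhb are open.

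The first slide carried Lgr5, high replicate 1 and medium replicate 1, and the other 4 arrays were on slide 2. Within slide 1 the differences of CD24 high and CD24 medium to Lgr5 were 2.30 and 2.09 for Hk1, 1.49 and 1.85 for Hk2, and 0.92 and 0.90 for Pfkp. They were 1.38 and 0.95 for Aldoa, 1.56 and 1.54 for Slc2a1 and −1.07 and −1.05 for Pgam1. No slide holds both CD24 low and Lgr5. With the sample channel alone, 3 members were higher and 3 lower in CD24 high than in Lgr5 (Ldha and Ldhb joined Pgam1), 3 higher and 2 lower in CD24 medium, and 4 higher and 2 lower in CD24 low, with Pgk1 beside Pgam1 in both. With processed signals it was 3 higher and 1 lower, 4 and 1, and 5 and 1. Of 17478 genes, the sample channel alone had 2581, 1239 and 1410 higher and 3693, 1687 and 2219 lower in CD24 high, medium and low. Of 17479 genes, processed signals had 3212, 1704 and 1915 higher and 4005, 1183 and 1618 lower. The median difference of all genes in CD24 high minus Lgr5 was −0.15 for processed signals and −0.04 for the sample channel alone, against 0.10. Of all called genes 59.2% were higher in CD24 high than in Lgr5, against 44.5% for processed signals and 41.1% for the sample channel alone, and for CD24 medium and CD24 low the sample channel alone gave 42.3 and 38.9%, against 54.7 and 55.0%.

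Between CD24 levels 2 members passed, each in 1 comparison. Against CD24 medium 1 member, Pgk1, was higher in CD24 high and 0 were lower, where 20.8% of all genes passed, 13.3% higher and 7.52% lower. Against CD24 low 1 member, Pfkp, was lower in CD24 high and 0 were higher, where 18.1% of all genes passed, 6.85% lower and 11.2% higher. In both, the called share of the 10 members was below that of all genes. Between CD24 medium and CD24 low 0 of 10 members passed in limma, where 0.114% of all genes did, and 3 members had an unadjusted p under 0.05. The median of the 10 members was 0.00086 for CD24 high minus CD24 medium, −0.30 for CD24 high minus CD24 low and −0.26 for CD24 medium minus CD24 low, and that of all genes −0.0060, −0.02 and −0.03.

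Pgk1 was 1.56-fold higher in CD24 high than in CD24 medium (log2 difference 0.64, SE 0.16, adjusted p = 0.037), with 0.64 within slide 1 and 0.64 within slide 2. Its second probe gave 0.16 (adjusted p = 0.49), and the call ended with the sample channel alone (0.24), with the mean of both probes (0.11) and without any 1 of the 4 arrays compared (0.076 to 0.2). Pfkp was 1.91-fold lower in CD24 high than in CD24 low (log2 difference −0.93, SE 0.15, adjusted p = 0.0086), and by −0.93 within slide 2. With the mean of its 3 probes the difference was −0.41 (adjusted p = 0.2). CD24 medium minus CD24 low was −1.04 for Pfkp (adjusted p = 0.091) and −0.70 for Slc2a1 (adjusted p = 0.37). On CD24 low Pfkp, Slc2a1 and Ldha stood above all other arrays, a pattern of 6.12% of all genes, and 0 members stood below all others, as 4.48% of genes did. On CD24 medium Pfkl stood above and Pgk1 below all others, patterns of 4.63 and 4.15% of genes. On CD24 high Aldoa and Pgk1 stood above all others, as did 20.8% of genes, and Ldha below all others, as did 15.9%. Between pairs of levels, 4 members (Hk1, Pfkp, Aldoa and Pgk1) were higher on both CD24 high arrays than on both CD24 medium arrays and 4 (Hk2, Pfkl, Pgam1 and Ldha) lower, as were 34.0 and 33.0% of all genes. Against CD24 low, 2 members (Aldoa and Pgk1) were higher and 4 (Hk2, Pfkp, Ldha and Slc2a1) lower on both CD24 high arrays, as were 30.2 and 31.6% of genes. On the CD24 medium arrays 1 member (Pfkl) was higher and 6 were lower than on both CD24 low arrays, as were 18.9 and 22.3% of genes. Aldoa in CD24 high against CD24 medium was 0.52 (SE 0.16, adjusted p = 0.063) and passed with no background subtraction (0.036), with the filter on all arrays (0.046) and with the mean of its probes (0.047). Ldha in CD24 high against CD24 low was −0.56 (SE 0.17, adjusted p = 0.072), and it passed under the same settings (0.042, 0.048 and 0.029). By mean log2 ratio, goblet markers were highest and Paneth markers low on the CD24 low arrays, although by summed ratio low replicate 2 (5.71) lay below both CD24 high arrays (6.04 and 5.89) and medium replicate 1 (5.78), and the part of that in the Pfkp difference was not tested. Among all called genes 63.9% were higher in CD24 high than in CD24 medium and 62.0% higher than in CD24 low. Processed signals gave 42.4 and 41.6% and the sample channel alone 45.5 and 47.5%, with all-gene medians of −0.21 and −0.23, and of −0.09 and −0.09.

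**Figure D3:**
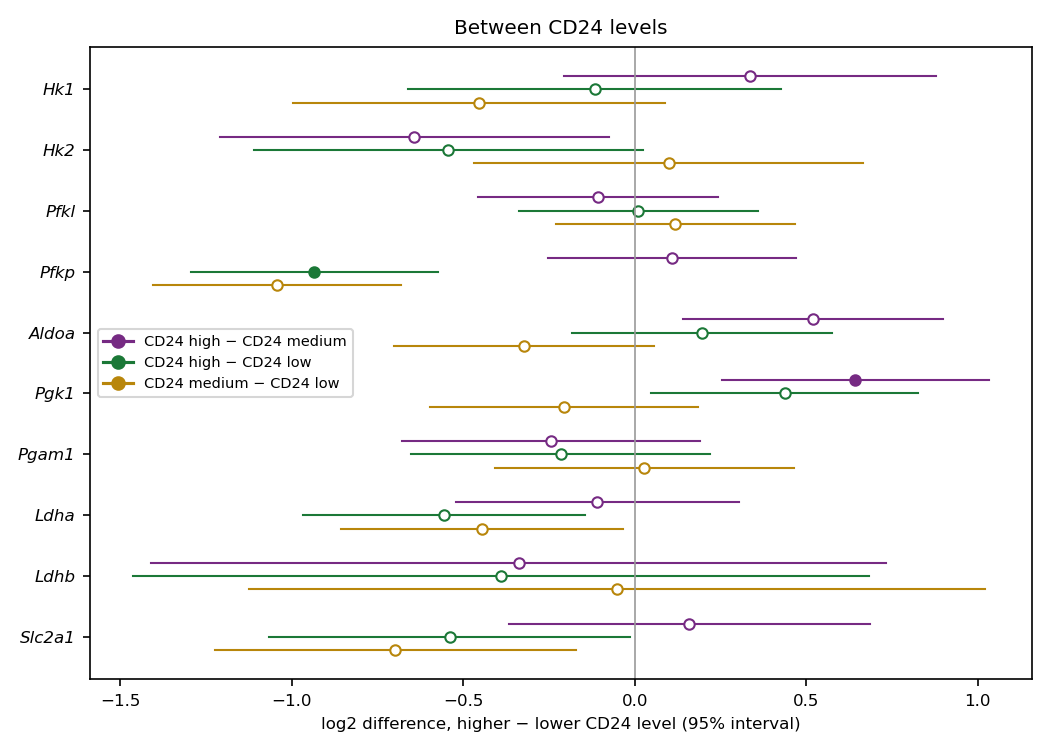
Log2 difference between CD24 levels on the horizontal axis, with 95% intervals, for the 10 members, as CD24 high minus CD24 medium, CD24 high minus CD24 low and CD24 medium minus CD24 low. Filled points have an adjusted p under 0.05, which Pgk1 (0.64) reached in the first of these and Pfkp (−0.93) in the next.

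Further probes were available for 5 members. Against Lgr5, the kept ones of Pgk1 and Pfkp did not all share the direction of the main probe. Between CD24 levels some probes of Hk1, Pfkp and Pgk1 also differed in direction from the main one, and no Hk1 probe passed there. For CD24 high minus CD24 low the further Pfkp probes gave −0.30 (adjusted p = 0.57) and 0.02 (0.96), against −0.93 for the main one. The second Pgk1 probe gave −0.07 (0.8) in that comparison, against 0.44 for the main one. For Hk1 the printed probe at 61734377 gave 1.11, 0.83 and 0.89 in CD24 high, medium and low against Lgr5 (adjusted p = 0.0082, 0.039 and 0.028), and the one at 61732735 gave 0.98, 0.83 and 1.10 (0.012, 0.037 and 0.014). The main probe gave 2.26, 1.92 and 2.38. Another pair of Hk1 probes, above background on 2 arrays each, gave 0.17 to 0.39 and did not pass, and a further one was above background on no array and was left out. The second Aldoa probe shares most of its bases with the main one, so the 2 are not independent readings. It gave 1.50, 0.96 and 1.26, all called, close to the main probe's 1.47, 0.95 and 1.28. It also passed for CD24 high against CD24 medium, at 0.54 (adjusted p = 0.049). For Pfkp the second probe gave 1.16, 1.08 and 1.46 against Lgr5 and passed for CD24 low (adjusted p = 0.05), while another, above background on 2 arrays, gave −0.41, −0.65 and −0.42 and did not pass. The second Pgk1 probe, which overlaps the main one in sequence, gave −0.38 for CD24 high against Lgr5. The main Pgk1 probe gave 0.18, and neither passed. The intron-crossing Ldha probe printed above gave −0.71 for CD24 high against CD24 low (adjusted p = 0.023) and did not pass against Lgr5 (−0.19, −0.02 and 0.52).

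**Figure D4:**
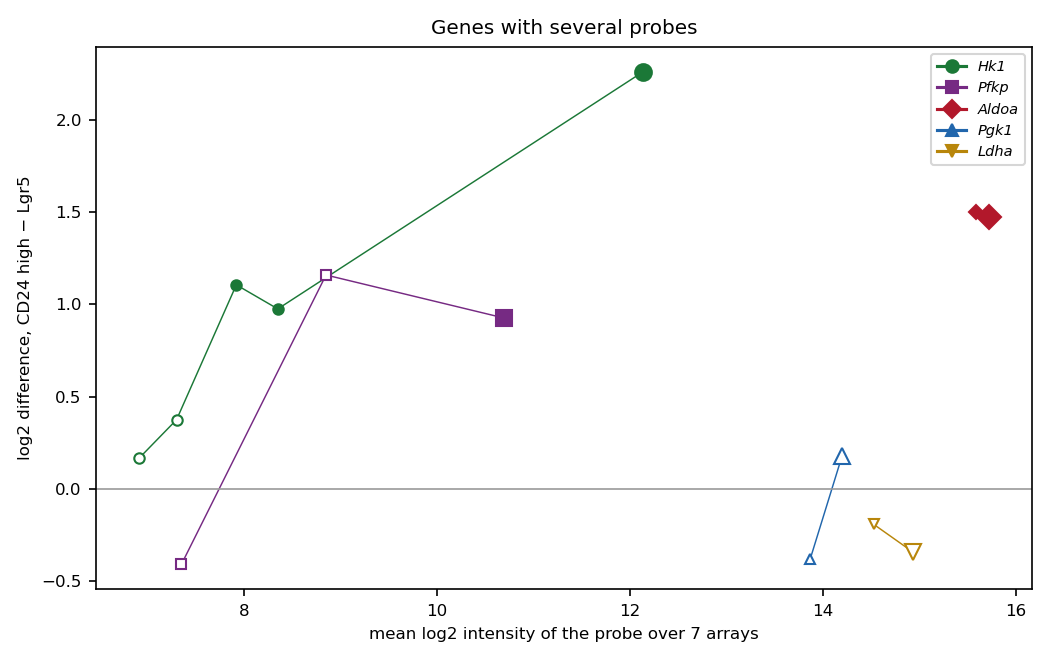
Log2 difference of CD24 high minus Lgr5 on the vertical axis against the probe's mean log2 intensity over 7 arrays on the horizontal axis, for the 5 members with several kept probes. Large symbols are the probes used for the main values and filled symbols have an adjusted p under 0.05. The Hk1 difference runs between 0.17 and 2.26, and the Pfkp probes between −0.41 and 1.16.

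Across the 7 arrays the members fell into unlike patterns. Hk1 correlated with Slc2a1 at r = 0.96 and with Aldoa at 0.94, Pfkp with Slc2a1 at 0.92, and Pgam1 with Aldoa at −0.96 and with Hk1 at −0.92. Pgk1 correlated with no member at over 0.13, and its lowest value was −0.53, with Hk2. These values over 7 arrays rest largely on the Lgr5 array and on group differences, and are a description alone. Among 13778 named genes, the nearest patterns to Hk1 were Fam83e (0.996), Sytl2 (0.995) and Ostc (0.995), and to Slc2a1 Sec14l2 (0.998), Myh14 and Slc22a23. Those nearest to Aldoa were Tnfaip2 (0.997), Dnaaf1 and Cd82, to Hk2 Zcrb1 (0.988), to Pfkp Duoxa2 (0.982), to Pgam1 Knop1 (0.997) and to Pgk1 Ak4 (0.988), which encodes an adenylate kinase.

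Other enzymes of glycolysis did not share 1 direction. Of 12 tested, 2 were higher and 2 lower in CD24 high than in Lgr5, 1 and 1 in CD24 medium, and 2 higher with 0 lower in CD24 low. Among all genes the shares higher were 21.2, 10.3 and 11.9% in the 3 comparisons and the shares lower were 14.6, 8.53 and 9.78%, and the counts are read against these. Hk3, a hexokinase of myeloid cells, stood at 1.17 and 1.20 in CD24 high, between −0.23 and 0.14 on the other Dll1 arrays and at −0.19 in Lgr5. Its difference was 1.37 to Lgr5 (adjusted p = 0.0031), 1.35 to CD24 medium (0.0033) and 1.16 to CD24 low (0.005). Immune markers, 7 measured of 8, moved with it in part. In CD24 high 3 were called higher than in CD24 medium and 3 higher than in CD24 low, with 4 not passing in each. Of all genes 13.3 and 11.2% were higher in these comparisons. Against Lgr5, 4 immune markers were higher and 1 lower. The log2 of their summed ratios, which a few genes can carry, was 4.94 and 5.47 in CD24 high. It was 2.19 to 2.35 on the other Dll1 arrays and 1.94 in Lgr5. The part of the immune markers in the Hk3 difference was not tested. Pfkm, the muscle type phosphofructokinase, was lower in CD24 high than in Lgr5 (−1.27, adjusted p = 0.015), a call that ended without high replicate 2 (0.051). Gapdh, the dehydrogenase between aldolase and Pgk1, was higher in CD24 low than in Lgr5 (0.83, adjusted p = 0.032) and lower in CD24 high than in CD24 low (−0.72, adjusted p = 0.029). Pkm, pyruvate kinase, was lower in CD24 high than in CD24 medium (−0.68, adjusted p = 0.028) and CD24 low (−0.64, adjusted p = 0.037). The Gapdh call for CD24 low against Lgr5 ended in 8 of 17 alternatives, among them processed signals, the sample channel alone and slide as a term. The other Gapdh call ended in 7 of 18 alternatives, and those of Pkm in 4 and 7 of 18. With the sample channel alone, 8 of the 12 were lower in CD24 high than in Lgr5 and 1 higher. In that setting 3693 of 17478 genes were lower and 2581 higher.

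Carriers of lactate and sugar changed in both directions in CD24 high cells. Of 8 tested, 5 were higher and 1 lower in CD24 high than in Lgr5, with a median of 1.29, 1 and 1 in CD24 medium, and 2 higher with 1 lower in CD24 low, where 21.2, 10.3 and 11.9% of all genes were higher. Slc16a1 encodes MCT1, a carrier of lactate and pyruvate. It stood at −1.35 and −1.67 on the CD24 high arrays, −0.51 and −0.93 on CD24 medium, −0.58 and −0.76 on CD24 low and 0.91 on Lgr5. Lgr5 was above all Dll1 arrays and CD24 high below the rest. Slc16a1 was lower by −2.42 in CD24 high (SE 0.26, adjusted p = 0.0011), −1.63 in CD24 medium (adjusted p = 0.0093) and −1.58 in CD24 low (adjusted p = 0.0097) than in Lgr5. Slc16a7 encodes MCT2, another carrier of this family. It stood at 3.11 and 2.27 on the CD24 high arrays, −0.28 and −0.28 on CD24 medium, −0.22 and −0.92 on CD24 low and −0.12 on Lgr5. It was higher in CD24 high than in CD24 medium by 2.97 (SE 0.33, adjusted p = 0.0026) and than in Lgr5 by 2.81 (adjusted p = 0.0031), and in CD24 low it was not well above background on either array. Slc16a3 encodes MCT4, known for lactate export, and was higher than in Lgr5 in CD24 high (2.01, adjusted p = 0.0035) and CD24 low (1.67, adjusted p = 0.013). Slc2a5, which encodes the fructose carrier GLUT5, was higher than in Lgr5 by 2.82 in CD24 high, 2.38 in CD24 medium and 1.13 in CD24 low (adjusted p = 0.00038, 0.0021 and 0.017). With slide as a term the CD24 low calls ended for Slc16a1 (0.05), Slc16a3 (0.073) and Slc2a5 (0.099), the last 2 also with the sample channel alone (0.075 and 0.067), and for Slc2a5 without low replicate 2 (0.052).

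The citric acid cycle oxidises the carbon of pyruvate in mitochondria, and its genes were mostly lower or not called in Dll1 cells. Of 17 citric acid cycle genes, 9 were lower and 0 higher in CD24 high than in Lgr5, 5 and 0 in CD24 medium, and 3 lower with 1 higher in CD24 low, with medians of −0.67, −0.42 and −0.21. Over the alternatives the number lower ran from 5 to 12 in CD24 high, 1 to 7 in CD24 medium and 0 to 6 in CD24 low, where the median ran from −0.49 to 0.03. Of all genes 14.6, 8.53 and 9.78% were lower in these comparisons. Idh3g, a subunit of isocitrate dehydrogenase, stood at −0.69 and −0.95 on the CD24 high arrays, 0.02 and 0.11 on CD24 medium, 0.02 and −0.09 on CD24 low and 0.97 on Lgr5. It was lower than in Lgr5 by −1.79, −0.91 and −1.01 (adjusted p = 0.0012, 0.026 and 0.018) and lower in CD24 high than in CD24 medium by −0.88 (adjusted p = 0.014). Sdha, the flavoprotein of succinate dehydrogenase, was lower than in Lgr5 by −1.43, −1.32 and −0.96 (adjusted p = 0.003, 0.0087 and 0.022). Ogdh, of the 2-oxoglutarate dehydrogenase complex, was the 1 gene higher in CD24 low (1.13, adjusted p = 0.011, and 0.058 with slide as a term). Without either CD24 medium array the Idh3g calls of that group ended (0.1 and 0.095 against Lgr5, 0.069 and 0.093 against CD24 high), the last also without high replicate 2 (0.068). With slide as a term its calls against Lgr5 ended for CD24 medium (0.061) and CD24 low (0.1, and 0.055 without low replicate 2). The Sdha call of CD24 low ended with the mean of all probes (0.087), with slide as a term (0.13) and without low replicate 1 (0.051). Against CD24 low, 7 of these 17 were lower and 0 higher in CD24 high, and leaving out 1 array or changing the setting gave 0 to 8 lower. Between CD24 high and CD24 low, 6.85% of all genes were lower and 11.2% higher in CD24 high. Of 10 genes of pyruvate entry, 1 was higher and 3 were lower in CD24 high than in Lgr5, 1 and 2 in CD24 medium, and 0 higher with 3 lower in CD24 low. Beside the shares of all genes, 21.2, 10.3 and 11.9% higher and 14.6, 8.53 and 9.78% lower, the single higher calls are at or below the background. Pdk1, a kinase that inhibits pyruvate dehydrogenase, was lower by −1.24, −1.21 and −1.29 (adjusted p = 0.0064, 0.014 and 0.011), which ended for CD24 medium without medium replicate 2 (0.071) and for CD24 low with slide as a term (0.059). Pdk4, of the same family, stood at 0.67 and 1.48 on the CD24 high arrays, −0.28 and 0.24 on CD24 medium, −1.16 and −0.72 on CD24 low and −1.73 on Lgr5. It was higher than in Lgr5 by 2.81 in CD24 high (adjusted p = 0.0029) and by 1.71 in CD24 medium (adjusted p = 0.031). The CD24 medium call of Pdk4 ended in 5 of 17 alternatives.

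Targets of hypoxia-inducible factor outside glycolysis were higher in CD24 high than in Lgr5 for 7 of 12 and lower for 0, with a median of 1.16. In CD24 medium 3 were higher and 1 lower (median 0.56), and in CD24 low 2 and 0 (median 0.67). With the sample channel alone 5 were higher and 3 lower in CD24 high, where 2581 of 17478 genes were higher and 3693 lower. In the main fit 21.2, 10.3 and 11.9% of all genes were higher in CD24 high, medium and low than in Lgr5. Ndrg1, a stress-induced gene, stood at 1.45 and 1.62 on the CD24 high arrays, 2.23 and 2.44 on CD24 medium, 1.96 and 2.29 on CD24 low and −1.08 on Lgr5. It was higher than in Lgr5 by 2.61, 3.41 and 3.20 (adjusted p = 0.00052, 0.00073 and 0.00086). Bnip3, a mitophagy receptor, was higher in CD24 high than in Lgr5 by 2.01 (adjusted p = 0.0085). Of 7 regulators of glycolysis, 3 were higher and 2 lower in CD24 high than in Lgr5 (1 and 3 with the sample channel alone). In CD24 medium and CD24 low 0 were higher and 2 lower. Of all genes 14.6, 8.53 and 9.78% were lower in CD24 high, medium and low. Ppargc1a was higher in CD24 high than in Lgr5 by 1.26 (adjusted p = 0.004) and than in CD24 medium by 0.96 (0.01). In CD24 high Pfkfb4 was higher than in CD24 medium by 0.75 (0.02). These CD24 medium calls ended in 2 and 4 of 18 alternatives. Myc, a transcription factor that activates many of these genes, was lower than in Lgr5 by −1.68, −1.84 and −1.78 (adjusted p = 0.0017, 0.0034 and 0.0035). Pfkfb1, whose enzyme makes and breaks fructose 2,6-bisphosphate, was lower by −1.28, −1.08 and −0.86 (adjusted p = 0.0049, 0.017 and 0.032). The CD24 medium call of Pfkfb1 ended without either CD24 medium array (0.056 and 0.085) and its CD24 low call in 4 of 17 alternatives. Hif1a itself stood at −1.63 and −1.18 on the CD24 high arrays, −1.79 and −1.36 on CD24 medium, −1.90 and −2.22 on CD24 low and −1.59 on Lgr5, and passed in no comparison.

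**Figure D5:**
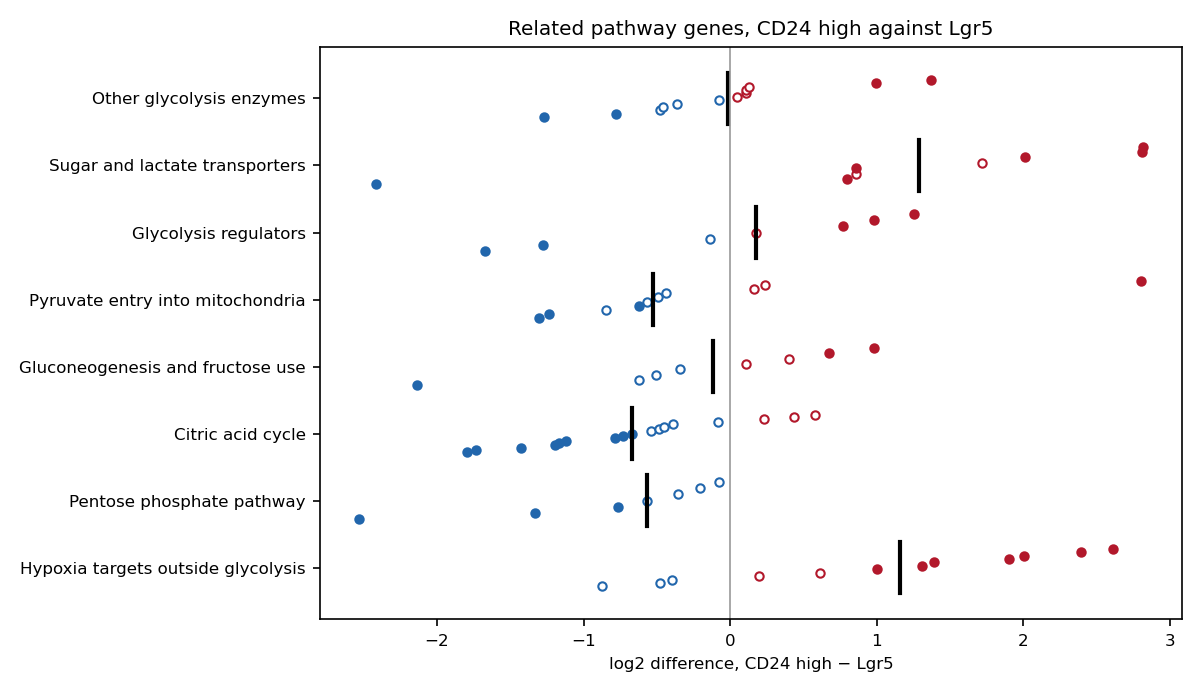
Log2 difference of CD24 high minus Lgr5 on the horizontal axis for each tested gene of 8 related lists down the page. Filled points have an adjusted p under 0.05, red is higher and blue is lower in CD24 high, and the black bar is the median of the list. Transporters (median 1.29) and hypoxia targets (1.16) lie mostly to the right of 0, citric acid cycle genes (−0.67) mostly to the left, and other glycolysis enzymes on both sides (−0.01).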

How the data were processed

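Spot intensity and local background of each dye, and a log10 ratio, come from Feature Extraction 10.5.1.1 per the file headers. The deposited series matrix holds log10 ratios of sample over reference, which equal that column with its sign turned, within 5e-06. Labelling started from 100 ng of RNA for each of the 7 arrays, per the labels' protocols, and dyes were never exchanged, so a dye effect cancels between groups alone.

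Mean signals were corrected with normexp (offset 50), log2 ratios were normalised by loess (span 0.3) in limma 3.58.1 (R 4.3.3) without scaling between arrays. Control spots had no weight, and spots with an outlier flag in the sample channel were dropped. Probes well above background in the sample channel on at least 2 of 7 arrays were kept (24495 of 41174), and the brightest probe stood for each of 17537 symbols, 17314 with a value on all arrays. Coordinates are mm9 for probes and GRCm38.p6 for promoters. All 7 arrays entered 1 fit of group means, with 3 residual and 3.55 prior degrees of freedom, and p-values had a Benjamini-Hochberg adjustment over all genes, with a threshold of 0.05. Intervals are 95% by limma.

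Members, lists and markers were chosen with earlier results of these data known. Named are all members and, per list and comparison, up to 3 called genes ranked by size of difference, or 1 where none passed, and the 3 genes most correlated with each called member. Alternatives were no background subtraction, Agilent's processed signals, quantile scaling, the sample channel alone, the series matrix, other filters, averaging the probes of a gene, slide as a term or random block, a replicate block and leaving out each array. Fits were tested on simulated data. Plots used matplotlib 3.10.9 (Python 3.11.15).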

Additional observations from a re-analysis of the deposited data

How the results depend on the processing

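Of 20 called member differences, with 342 alternative values, 310 kept direction and call, 32 lost the call and 0 turned sign. Of 40 that were not called, with 702 alternative values, 18 passed and 35 turned sign without passing. Quantile scaling of average intensities and a random slide block changed no member's call. The count of members called between CD24 high and CD24 medium, 1 as reported, was 2 with no background subtraction, with the sample channel alone or with the filter on all arrays, and 0 to 1 when 1 array was left out (0 without high replicate 2, medium replicate 1 or medium replicate 2, and Hk2 in place of Pgk1 without high replicate 1). Between CD24 high and CD24 low it was 3 with no background subtraction, 4 with the sample channel alone and 2 with the filter on all arrays, against 1. With the sample channel alone, all 4 were lower in CD24 high, as were 2317 of 17537 genes. Pfkp was joined by Hk2 (−0.79, adjusted p = 0.02), Slc2a1 (−0.63, 0.049) and Pgam1 (−0.62, 0.027). The 2 called against CD24 medium with the sample channel alone, Hk2 and Pgam1 (−0.74, 0.017), were also lower, as were 2246 genes. Between CD24 medium and Lgr5 it was 2 without medium replicate 1 and 3 without medium replicate 2, against 6, in a range of 2 to 6. Same-numbered replicates deviated together at r = 0.30 for CD24 high and medium and 0.48 for medium and low, but not for high and low (−0.01). As this did not hold in every pair of levels, the main fit took no pairs, and it does not model a shared part of the replicate number. High and medium arrays of 1 number also share a slide, while both CD24 low arrays were on slide 2. With a replicate block 7 members passed for CD24 high against Lgr5, against 6, as Ldhb joined at −0.85 (SE 0.17, adjusted p = 0.014), and no other member's call changed. Differences that turned sign passed in neither setting. With slide as a term they were 0.053 (Ldhb, CD24 high minus low), 0.39 (Ldhb, medium minus low), −0.064 (Hk2, medium minus low), −0.017 (Pfkl, high minus low), 0.0019 and 0.019 (Pfkl, high and low minus Lgr5) and −0.054 (Pgam1, medium minus low). With the sample channel alone they were −0.16 (Aldoa, high minus low), −0.48 (Ldha, low minus Lgr5), 0.18 (Ldhb, medium minus low), −0.31 (Pfkl, medium minus Lgr5), −0.14 (Pfkp, high minus medium) and −0.51 (Pgk1, high minus Lgr5). With processed signals and with the series matrix alike they were 0.28 (Ldhb, medium minus low), −0.024 (Pfkl, medium minus Lgr5) and −0.33 (Pfkp, high minus medium). No background subtraction gave 0.16 (Ldhb, medium minus low) and 0.054 (Pfkl, high minus Lgr5), and the mean of all probes −0.10 (Pgk1, high minus Lgr5). Leaving out 1 array gave −0.39 to 0.15 (Hk1, high minus low), −0.048 to 0.25 (Hk2, medium minus low), −0.84 to 0.062, −0.79 to 0.11 and −0.49 to 0.39 (Ldhb, high minus low, high minus medium and medium minus low), −0.0048 to 0.026 (Pfkl, high minus low), −0.0053 to 0.061 (Pgam1, medium minus low) and −0.013 to 0.33 (Slc2a1, high minus medium). The cause was not tested. Over all genes the number called moved by over 1.5 times between CD24 high and CD24 medium when 1 array was left out (1261 to 3978, against 3653), between CD24 high and CD24 low (5035 with no background subtraction, 5662 with processed signals, 5692 with the series matrix and 1682 to 3362 with 1 array left out, against 3166), between CD24 medium and CD24 low (34 with no background subtraction and 9 to 41, against 20), between CD24 medium and Lgr5 (1372 to 3628, against 3290) and between CD24 low and Lgr5 (1406 with slide as a term and 2302 to 3871, against 3798). Signal over background limits the dim further probes, and with 2 arrays a level and 1 for Lgr5 small differences between CD24 levels may be missed.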

Other observations

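The pentose phosphate pathway, which branches off at glucose 6-phosphate, had 3 of 7 genes lower and 0 higher in CD24 high than in Lgr5, and 1 lower and 0 higher in each of the other Dll1 groups, where 14.6, 8.53 and 9.78% of all genes were lower. Rpia, ribose 5-phosphate isomerase, stood at −0.40 and −0.81 on the CD24 high arrays, 0.69 and 0.19 on CD24 medium, 0.43 and −0.04 on CD24 low and 1.92 on Lgr5. It was lower than in Lgr5 by −2.53, −1.48 and −1.73 in CD24 high, medium and low (limma, adjusted p = 0.0019, 0.025 and 0.015), and the last 2 calls ended without medium replicate 2 (0.095) and with slide as a term (0.075). Pgd, which makes NADPH, was lower in CD24 high than in CD24 low by −1.32 (limma, adjusted p = 0.0025). Fbp1, fructose bisphosphatase of gluconeogenesis, stood at −1.08 and −1.18 on the CD24 high arrays, −1.80 and −1.36 on CD24 medium, −1.74 and −1.37 on CD24 low and 1.01 on Lgr5. It was lower than in Lgr5 by −2.13, −2.59 and −2.56 (limma, adjusted p = 0.0017, 0.0026 and 0.0024), and these calls held under every alternative tried.

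Ldhb differed between replicate numbers more than between groups. Replicate 2 minus replicate 1 was 0.90 in CD24 high, 0.87 in CD24 medium and 0.88 in CD24 low. Of 17314 genes, 22 (0.127%) had replicate 2 above replicate 1 by at least 0.8 in all 3 levels, and 20 had the opposite. This count was made after the Ldhb values were seen.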
